A study of Mus musculus with 12 samples.

Results

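The comparison of Zfx ko with Zfx wt cells that both received a Myc virus covered 6 of the series' 12 gene arrays, chosen by their titles: 3 arrays of Myc Zfx ko cells and 3 of Myc Zfx wt cells. Both groups started as c-Kit+ bone marrow progenitors, immature cells that give rise to the blood lineages, taken from Zfx fl/y CreER mice (ko) or Zfx wt/y CreER mice (wt). Both genotypes carried CreER, a recombinase switched on by tamoxifen, and both had received tamoxifen at 5 mg daily by gavage for 3 days, so CreER and the drug are common to the groups compared. The labels do not name a promoter for CreER, an age, or the number of mice behind an array. A retrovirus brought Myc and GFP into these cells, or GFP alone as the control (3 GFP Zfx ko arrays and 3 GFP Zfx wt arrays, used here only beside the Myc arrays). They were kept for 48 hours in 20% FBS with SCF, IL-6 and IL-3, each at 10 ng/mL, sorted for GFP as myeloid progenitors, and grown for 4 more days before RNA was taken. Values are linear array intensities, 1 probe set for each of 19936 genes, and an array is called ko or wt with its replicate number.

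Zfx is an X-linked zinc finger transcription factor that binds near the starts of many genes, and it is known for its role in the self-renewal of stem cells, those of blood among them. Myc is a transcription factor that pairs with Max on E-box sequences and is known for driving ribosome synthesis, nucleotide synthesis and growth. Both have been studied in myeloid leukaemia, where added Myc keeps progenitors growing. The comparison asks what the loss of Zfx does to gene expression when Myc is supplied.

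Array medians lay between 127 and 137. Log2 values of replicates correlated at 0.988 to 0.994 within Myc Zfx ko and at 0.990 to 0.993 within Myc Zfx wt, and 0 pairs were identical. The Zfx probe set was not lower in ko. It read 1036, 1116 and 991 in Myc Zfx ko, against 1019, 991 and 966 in Myc Zfx wt, a 1.06-fold difference (95% interval 0.943 to 1.18, adjusted p = 0.789). Where its probes lie on the transcript is not given, so this probe set may lie outside the deleted part and does not check the labels; directions below rest on arrays labelled ko and wt. The Myc probe set read 5210.4, 4746 and 5180.0 in Myc Zfx ko, against 5356, 4842 and 5493 in Myc Zfx wt (adjusted p = 0.911). The 2 groups overlapped for both genes, and the Myc probe set was above its 2551 to 2841 of GFP Zfx ko in all 3 Myc Zfx ko arrays. Of the marker lists, 8 of 8 measured primary granule genes exceeded the median intensity of all probe sets in the Myc arrays, against 0 of 11 T and NK lymphoid, 2 of 10 B lymphoid and 6 of 12 stroma and endothelium genes. So did 18 of 19 neutrophil maturation, 17 of 21 monocyte and macrophage, 9 of 10 megakaryocyte and 9 of 12 erythroid genes. The counts were 6 of 8 for eosinophil, 15 of 22 for stem and progenitor, 11 of 19 for mast cell and basophil and 5 of 13 for dendritic cell genes.

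With Myc supplied, 742 genes fell and 347 rose in cells labelled Zfx ko. These were 3.72% and 1.74% of the 19936 genes tested, together 1089 or 5.46% (limma, Benjamini-Hochberg adjusted p under 0.05). With the replicate number as a block 1601 fell and 1205 rose, 8.03% and 6.04%. At a fold of at least 2, 110 fell (0.552%) and 82 rose (0.411%), and with the block 127 (0.637%) and 156 (0.783%). The 3 arrays of each genotype did not overlap for 2204 lower genes (11.1%) and 1673 higher genes (8.39%). The largest falls were steep and tight, while the largest rises varied more, mainly among ko arrays. Over the 15 largest falls the SD was at the median 15.5% of the mean in ko and 13.2% in wt. Over the 15 largest rises it was 47.4% in ko and 20.7% in wt, and ko 1 was the lowest ko array for 12 of those 15 rises. These SDs include any level that same-numbered arrays share. Leaving out 1 array gave 578 calls without wt 3, 639 without ko 3, 691 without wt 2 and 721 without wt 1, and at most 935. The median log2 difference over all genes was -0.0012.

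**Figure D1:**
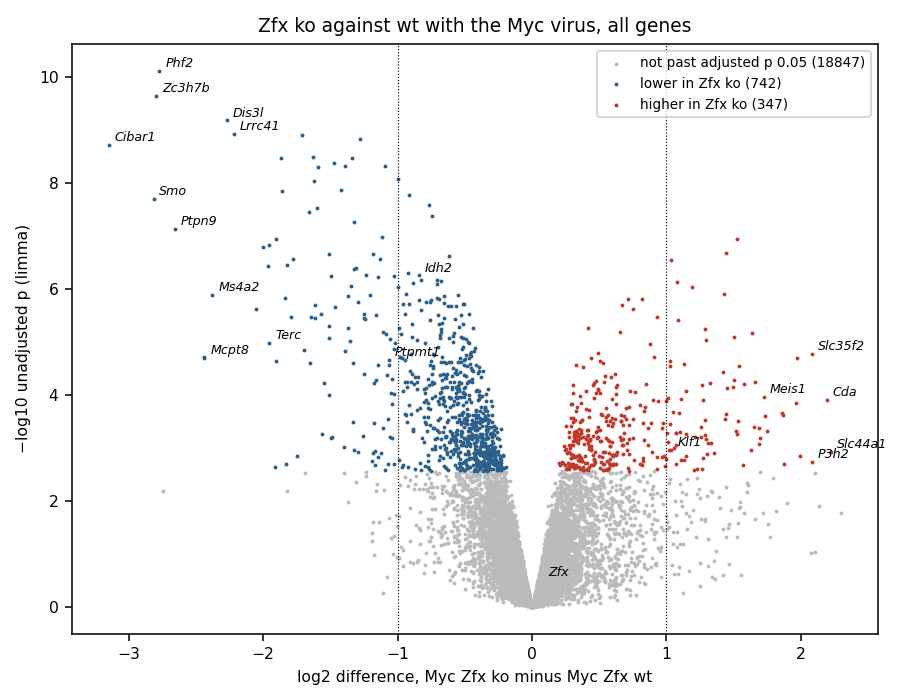
Each point is 1 of 19936 genes; the horizontal axis is the log2 difference, Myc Zfx ko minus Myc Zfx wt, and the vertical axis is −log10 of the unadjusted limma p. The colours mark the 742 genes that fell and the 347 that rose past adjusted p 0.05, and the points highest on the plot lie on the side of the falls.

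The DNA near the starts of the genes that fell is shown here because Zfx is a DNA-binding factor with a known motif whose core is AGGCCT. Promoter windows of 300 bases, 250 before the start and 50 after it, came from RefSeq on GRCm38.p6, and 13 of the 15 genes with the largest falls had one. The hexamer lay in a window of 3 of these 13, Dis3l, Msantd3 and Mcpt8. The 60-base stretches around it follow, 5′ to 3′ on the gene's strand, with AGGCCT in capitals. Dis3l is at chr9:64340774-64340833 on the minus strand, Msantd3 at chr4:48539857-48539916 on the plus strand and Mcpt8 at chr14:56085388-56085447 on the minus strand.
Dis3l: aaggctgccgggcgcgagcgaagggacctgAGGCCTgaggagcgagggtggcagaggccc
Msantd3: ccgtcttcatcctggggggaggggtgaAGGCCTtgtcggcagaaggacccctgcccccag
Mcpt8: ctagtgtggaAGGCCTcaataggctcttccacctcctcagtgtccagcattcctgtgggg

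The hexamer starts 30 bases before 1 start of Dis3l, and the window of another start of Dis3l has none. For Msantd3 it starts 62 bases before 1 start and 197 before another, and the window of a further start has none. For Mcpt8 it starts 240 bases before the start. Across the falls of at least 2-fold, 16 of 92 genes with a window held AGGCCT (17.4%), against 1822 of all 15564 genes with a window (11.7%). Among the rises of at least 2-fold 7 of 66 genes did (10.6%). Among the smaller changes the order was the other way, with 65 of 517 falls under 2-fold (12.6%) and 32 of 222 rises under 2-fold (14.4%), so the shares did not separate falls from rises across all called genes. GAGCTC, which has the same bases in another order, was in 15 of the 92 (16.3%) and in 14.0% of all. The Myc E-box CACGTG was in 4 of the 92 (4.3%) and in 9.5% of all. Among 7851 genes not past the threshold but above the median intensity, the shares were 12.4% for AGGCCT, 15.2% for GAGCTC and 12.3% for CACGTG. Each of these motifs reads the same on both strands, and no match to 1 of them can share more than an end base with a match to another. Windows of the 92 had a mean GC content of 63.8%, against 56.9% over all windows' genes and 60.8% over those 7851 genes. The part of GC content in these shares was not tested. A match is a description of letters and not a site of binding.

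Among the 15 genes that fell most, a first group had no common lineage role: Cibar1, Smo, Zc3h7b, Phf2, Ptpn9, Dis3l, Lrrc41, Msantd3, Egln1, Dipk1b, Terc and Sccpdh fell 3.88-fold to 8.88-fold, and each also fell past the threshold with the GFP virus. Cibar1, which encodes a membrane-bending protein of the base of the cilium, read 57.6, 51.5 and 62.0 in Myc Zfx ko, against 410.4, 696 and 450.4 in Myc Zfx wt. All 3 ko arrays were below the median intensity of an array and all 3 wt arrays far above it, an 8.88-fold fall (95% interval 6.89 to 11.4, adjusted p = 5.52e-06). Smo, the membrane protein that carries the Hedgehog signal into the cell, read 183, 117 and 151 in ko, against 1205, 981 and 954 in wt. The highest ko array was below every wt array by a wide margin, a 7.05-fold fall (5.29 to 9.38, adjusted p = 2.01e-05). Phf2, a histone demethylase with a PHD finger, read 243, 228 and 206 in ko, against 1629.9, 1485 and 1504 in wt. It had the lowest p of the named genes (6.83-fold fall, 5.81 to 8.04, adjusted p = 1.54e-06).

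Zc3h7b, a CCCH zinc finger RNA-binding protein, read 176, 146 and 157 in Myc Zfx ko, against 1184, 918 and 1254 in Myc Zfx wt, a 6.95-fold fall. Ptpn9, a tyrosine phosphatase of secretory vesicles, read 136, 243 and 172 in ko, against 993, 1274 and 1130.1 in wt, a 6.31-fold fall. Neither gene's groups overlapped. Dis3l, the catalytic subunit of a cytoplasmic RNA exosome, read 85.6, 90.4 and 90.4 in ko, against 409.6, 453 and 425 in wt (4.83-fold fall, adjusted p = 4.44e-06). Lrrc41, a substrate receptor of a cullin ubiquitin ligase, read 364, 457 and 337 in ko, against 1787, 1817 and 1739.7 in wt (4.66-fold fall, adjusted p = 5e-06). The arrays of Dis3l lay within a few units of each other in ko. Msantd3 read 293, 203 and 151 in ko, against 883, 918 and 789 in wt, a 4.14-fold fall.

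Egln1, the prolyl hydroxylase that marks HIF for destruction when oxygen is present, read 217, 132 and 167 in Myc Zfx ko, against 701, 665 and 661 in Myc Zfx wt. It fell 4.01-fold (3.12 to 5.15, adjusted p = 1.05e-04), with no overlap between groups. Terc, the RNA template of telomerase, read 809, 1392 and 1604 in ko, against 4403, 5005 and 4783 in wt. Its fall was 3.88-fold (2.65 to 5.68, adjusted p = 0.00146) with Myc, and 7.05-fold with GFP, where ko arrays read 437, 739 and 610.5, against 3499, 4479.9 and 4410.0 in GFP Zfx wt. The difference between those Terc effects was 0.86 on the log2 scale (95% interval 0.09 to 1.64) and did not pass the threshold. Tert, the protein subunit of telomerase, named here after its values were seen, read between 63.1 and 67.3 in Myc Zfx ko and between 64.1 and 67.8 in Myc Zfx wt, below the array medians. Dipk1b, a kinase-like protein of the endoplasmic reticulum, fell 3.91-fold and the oxidoreductase gene Sccpdh fell 3.88-fold, to 50.1, 47.3 and 49.8 in ko, against 158, 202 and 216 in wt. All 15 of the largest falls kept their call in every alternative tried, and 15 of 15 were lower with GFP as well, 14 of them past the threshold.

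**Figure D2:**
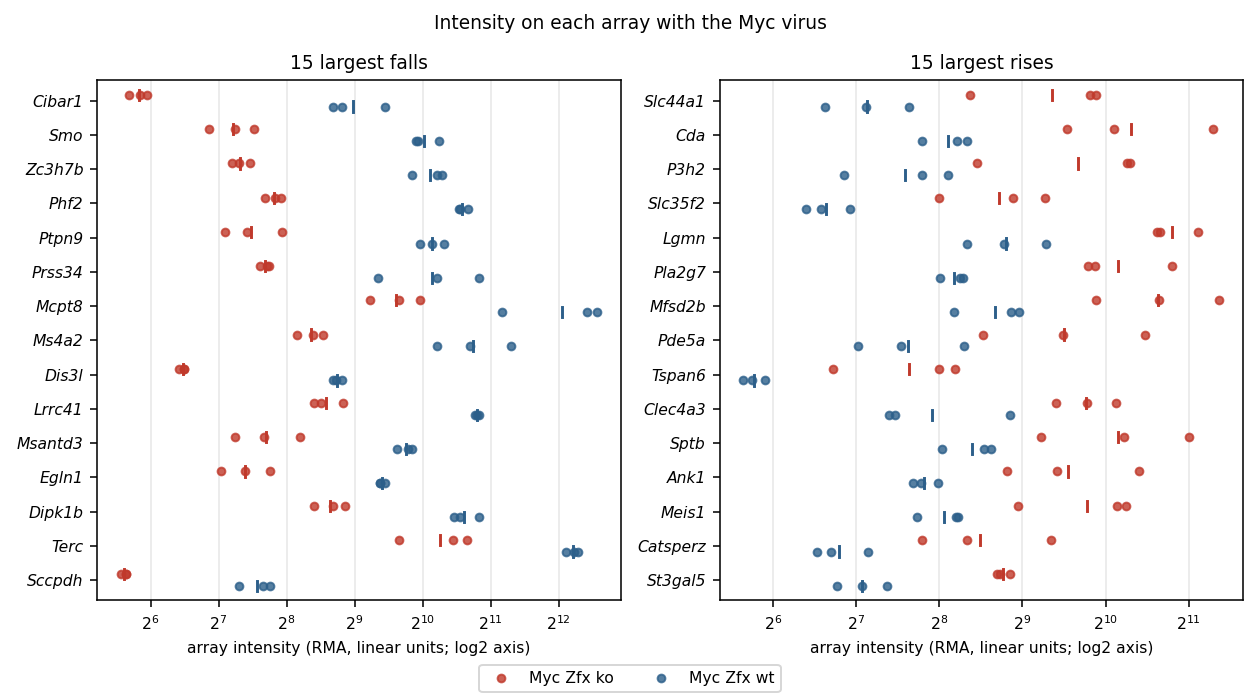
Points are single arrays, red for Myc Zfx ko and blue for Myc Zfx wt, and ticks are group means of log2 values; the horizontal axis is intensity on a log2 axis. Left, the 15 largest falls, where the ko points of most genes are tightly grouped; right, the 15 largest rises, where the ko points spread more widely.

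Basophil and mast cell genes formed the other group among the largest falls: Prss34, Mcpt8 and Ms4a2. In bulk RNA fewer cells of a type and less RNA per cell cannot be told apart. Mcpt8, a protease that marks basophils, read 598, 807 and 999 in Myc Zfx ko, against 2304, 5494 and 6049.9 in Myc Zfx wt. Every wt array was above every ko array, and wt 1 was the lowest of wt (5.42-fold fall, 3.25 to 9.04, adjusted p = 0.00236). Prss34, a protease of basophils and mast cells, read 215, 209.7 and 195 in ko, against 653, 1192 and 1815 in wt (5.44-fold fall, adjusted p = 0.00235). Ms4a2, the beta chain of the high-affinity IgE receptor, read 283, 337 and 371 in ko, against 1187, 1654 and 2533 in wt (5.20-fold fall, adjusted p = 4.20e-04). With the GFP virus Ms4a2 was 1.77-fold lower (adjusted p = 0.0997), and the difference between its effects under the 2 viruses, -1.55 on the log2 scale (-2.31 to -0.80), did not pass the threshold (adjusted p = 1, 0.19 with the block).

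Of 19 measured mast cell and basophil genes 5 fell and 0 rose, and 7 fell with the block, beside 3.72% and 8.03% of all genes lower. The list's median log2 difference was -0.48, and the medians of the same-numbered pairs were -0.41, -0.75 and -0.53. The other members were Fcer1a, the alpha chain of the IgE receptor, which fell 3.77-fold (adjusted p = 0.0445), and Gata2, a transcription factor of mast cells and progenitors, which fell 2.63-fold (adjusted p = 0.0252). Gata2 read 767, 884 and 1312 in ko, against 1486, 2809 and 3898 in wt. The summed level of the list was 6867 to 10891 in Myc Zfx ko and 12375 to 27829 in Myc Zfx wt. Cpa3, a mast cell carboxypeptidase named after its values were seen, read 2329.9, 4998 and 4724 in ko, against 3106, 6703 and 6837 in wt, and the groups overlapped (adjusted p = 0.674). In each same-numbered pair Cpa3 was lower in ko, by log2 differences of -0.41, -0.42 and -0.53 (adjusted p = 0.387 with the block). With GFP 3 of 19 fell and 0 rose, at a median of -0.49. Fcer1a read 114, 458 and 259 in Myc Zfx ko, against 495, 1244 and 1179 in Myc Zfx wt, and 929, 817 and 1112 in GFP Zfx ko, against 879, 773 and 1287 in GFP Zfx wt. It was low in Myc Zfx ko and overlapped between genotypes with GFP, and the difference between its effects, -1.90 on the log2 scale (-3.39 to -0.40), did not pass the threshold (adjusted p = 1). Leaving out 1 array gave 3 members lower without ko 1, wt 2 or wt 3, 4 without ko 3, 5 without ko 2 and 8 without wt 1. The call of Fcer1a was lost without ko 1, ko 3, wt 2 or wt 3 (adjusted p 0.101 to 0.159), and that of Gata2 without ko 1, ko 2, wt 2 or wt 3 (0.0806 to 0.086).

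Red cell genes were higher. Of 12 measured erythroid genes 5 rose and 0 fell, and 9 rose with the block, beside 1.74% and 6.04% of all genes higher. The median log2 difference was 1.28, with 1.06, 0.95 and 2.00 in pairs 1, 2 and 3. Klf1, the erythroid transcription factor, read 473, 436 and 821 in Myc Zfx ko, against 240.5, 295 and 276 in Myc Zfx wt (2.05-fold rise, adjusted p = 0.0281). Epor, the erythropoietin receptor, read 294, 321 and 705 in ko, against 127, 146 and 148 in wt (2.90-fold rise, adjusted p = 0.013). Car2, a carbonic anhydrase abundant in red cells, read 3314, 3706 and 5139 in ko, against 1200.1, 1871 and 1251 in wt (2.82-fold rise, adjusted p = 0.00511). In these genes ko 3 was the highest array and no groups overlapped. Ank1, which anchors the red cell membrane skeleton, rose 3.32-fold, and the erythroid surface gene Ermap rose 2.72-fold. Sptb, the spectrin of that skeleton and outside the list, read 599, 1194 and 2048 in ko, against 262, 371 and 395 in wt, a 3.36-fold rise. The summed level of the erythroid list was 11481 to 18720 in ko and 6497 to 8595 in wt, and the part of such shifts in other genes' values was not tested. With GFP 0 of 12 passed the threshold (median 0.42), and none of the 5 passed in the test of the difference between viruses. Without ko 1 the list had 7 members higher, and 4 without wt 1, wt 2, wt 3 or ko 3; Klf1 lost its call without any of those 4 arrays (adjusted p 0.0562 to 0.0936) and Sptb without wt 1 or ko 2 (0.0635 and 0.0565). Fitted on the 6 Myc arrays alone without the block the list had 2 members higher, and Epor and Ank1 had adjusted p values of 0.0711 and 0.0753. On the same arrays with the block 7 members were higher, and Epor and Ank1 passed the threshold.

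Platelet genes had a median difference about as large, but the ko and wt arrays overlapped for each of the 10 genes measured. Of 10 measured megakaryocyte genes 0 passed the threshold and 8 rose with the block, beside 6.04% of all genes higher with the block. The median log2 difference was 1.31, with 0.91, 1.39 and 1.38 in the pairs, and 1.43 with GFP, where 1 of 10 rose. The summed level of the list was 10295 to 24796 in Myc Zfx ko and 6059 to 12567 in Myc Zfx wt. Pf4, a chemokine of platelet granules, read 2959, 7821 and 7982 in Myc Zfx ko, against 862, 2785 and 3069 in Myc Zfx wt. The lowest ko array was below the highest wt array, and adjusted p was 0.135, or 0.00323 with the block. Itga2b, the platelet integrin CD41, read 568, 1625 and 1872 in ko, against 341, 541 and 622 in wt (adjusted p = 0.101, or 0.00406 with the block). The ko 1 array was the lowest ko array and wt 1 the lowest wt array for both genes, and without ko 1 4 members rose. Meis1, a homeobox transcription factor of stem cells and megakaryocytes, did pass: it read 493, 1215 and 1129 in ko, against 213, 294 and 299 in wt (3.31-fold rise, 2.13 to 5.14, adjusted p = 0.00659). Zfpm1, the Gata1 cofactor FOG1, rose 2.88-fold, and Gfi1b, a repressor of erythroid and megakaryocyte cells, rose 2.15-fold. Zfpm1 read 1455, 2605 and 3608 in ko, against 569.9, 994 and 1010.5 in wt. The call of Zfpm1 was lost without wt 1, ko 2 or ko 3 (adjusted p 0.0594 to 0.0638) and that of Gfi1b without wt 1 or wt 2 (0.0643 and 0.0529). Fitted on the 6 Myc arrays alone, Meis1 had an adjusted p of 0.0664 without the block and passed the threshold with it.

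**Figure D3:**
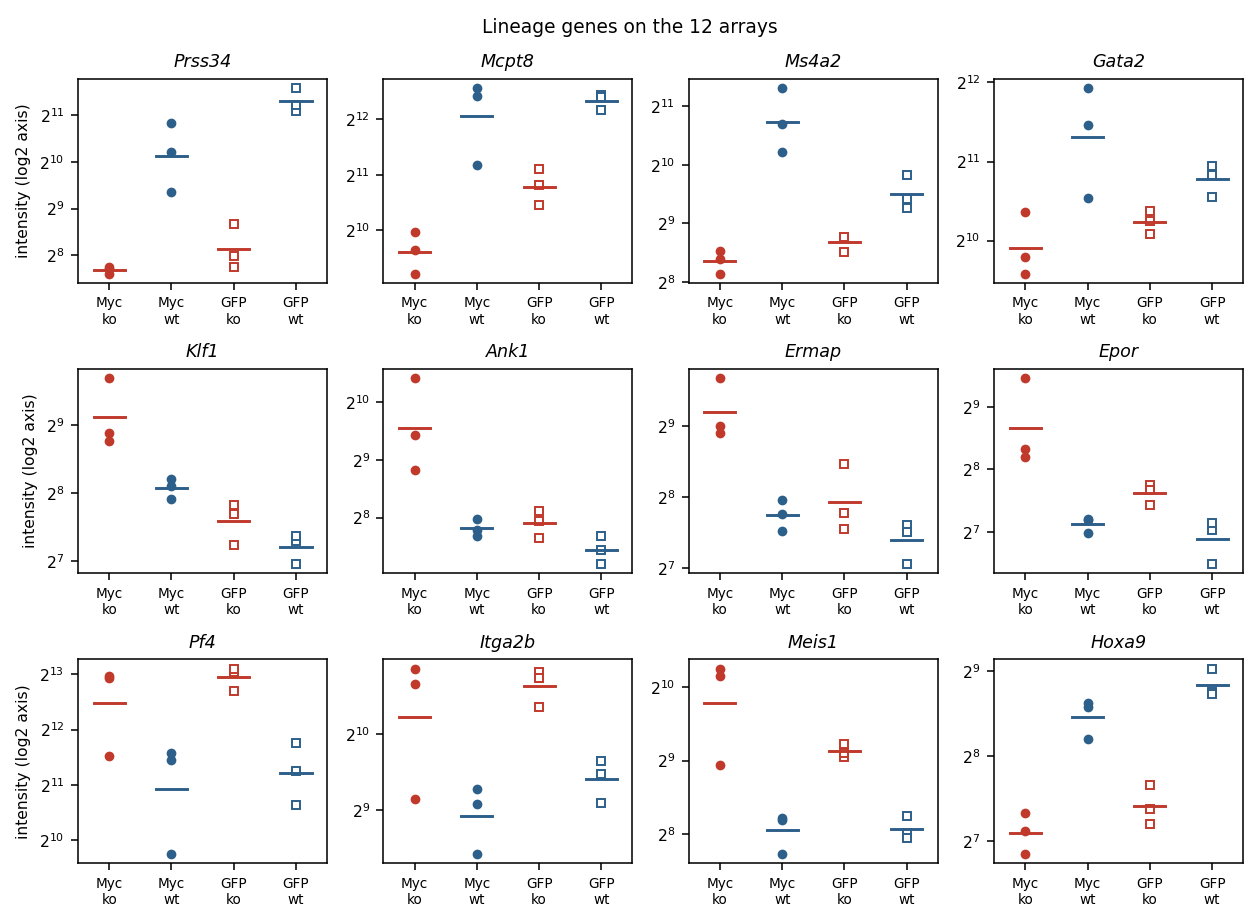
Intensity of 12 lineage genes on each of the 12 arrays, on a log2 axis; groups from left to right are Myc Zfx ko, Myc Zfx wt, GFP Zfx ko and GFP Zfx wt, and points are single arrays. Mcpt8, Ms4a2 and Hoxa9 are lower in ko than in wt on every array with Myc, and Klf1, Epor and Meis1 are higher.

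Stem and progenitor genes went both ways. Of 22 measured 3 rose (Meis1, Tek, Gfi1b) and 3 fell (Hoxa9, Hoxb4, Hoxa5), with 7 up and 4 down with the block. The median log2 difference was 0.08. Of all genes 1.74% rose and 3.72% fell, and 6.04% and 8.03% with the block. Hoxa9, a homeobox gene that works with Meis1 in progenitors and in leukaemia, read 161, 115 and 139 in Myc Zfx ko, against 381, 294 and 396 in Myc Zfx wt. It fell 2.58-fold (2.01 to 3.31, adjusted p = 9.71e-04), and 2.68-fold with GFP. So Hoxa9 and Meis1 moved in opposite directions on arrays that did not overlap for either gene. Hoxb4, another homeobox gene of stem cells, read 92.3, 79.9 and 97.4 in ko, against 131, 119 and 128 in wt, a 1.41-fold fall from a level near the array median (adjusted p = 0.00747). Hoxa5 was 1.14-fold lower at an intensity between 50.3 and 53.3 in ko, and lost its call without any 1 of the 6 arrays (adjusted p 0.0664 to 0.162). Tek, the angiopoietin receptor, rose 1.77-fold and lost its call without wt 2 or ko 2 (0.0522 and 0.0533).

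Granulocyte genes included calls in both directions. Beside 1.74% of all genes higher and 3.72% lower, of 19 neutrophil maturation genes 1 rose and 1 fell, with a median of 0.04, and 3 and 2 with the block. Chil3, a secreted lectin of myeloid cells, read 1168, 1909 and 1349 in Myc Zfx ko, against 3393, 5136 and 4024 in Myc Zfx wt (2.86-fold fall, 2.14 to 3.81, adjusted p = 0.00126). Mmp8, the neutrophil collagenase, moved the other way and read 3430.4, 4329.9 and 4755 in ko, against 2293, 1732 and 1840.1 in wt (2.13-fold rise, adjusted p = 0.0105). Of 8 primary granule genes 3 fell and 0 rose (median -0.34, beside 3.72% of all genes lower), and 6 fell with the block; leaving out 1 array gave 1 lower without wt 1, wt 2, ko 2 or ko 3 and 4 without ko 1. Cst7, an inhibitor of cysteine proteases, read 2136, 2031 and 1837 in ko, against 3481, 3389 and 3756 in wt (1.77-fold fall, adjusted p = 2.73e-04). Nkg7, a granule membrane protein, fell 3.56-fold and Ms4a3, a membrane protein and no granule enzyme, fell 1.26-fold. Nkg7 lost its call without any array but ko 1 (adjusted p 0.0755 to 0.139), and Ms4a3 without wt 1, wt 2, ko 2 or ko 3 (0.0564 to 0.0759). Myeloid transcription factors had 1 of 21 up (Zfpm1) and 1 down (Gata2), and 3 up and 4 down with the block. Counts with the block are read beside 6.04% of all genes higher and 8.03% lower.

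The other cell type lists had 0 members past the threshold. Monocyte and macrophage genes (21 measured, median 0.18) had 4 up with the block, beside 6.04% of all genes. Dendritic cell and MHC class II genes (13 measured, median 0.35) had 2 up with the block. In that last list replicate 2 stood apart: Cd74, the MHC class II chaperone, read 771, 4558 and 376 in Myc Zfx ko, against 211, 1781 and 209 in Myc Zfx wt, and H2-Aa read 99.2, 5651 and 72.3 in ko, against 85.9, 1607 and 78.3 in wt. Both genes, named after their values were seen, were highest in replicate 2 of each genotype. The list's summed level was 2147 to 20490 in ko and 1774 to 6968 in wt. The eosinophil (8 genes), B lymphoid (10), T and NK lymphoid (11) and stroma and endothelium (12) lists had 0 calls, also with the block.

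The remaining large rises held transporters and enzymes. Slc35f2, a solute carrier, read 255, 472 and 618 in Myc Zfx ko, against 84.4, 95.9 and 121 in Myc Zfx wt (4.23-fold rise, 2.76 to 6.49, adjusted p = 0.00212). Pla2g7, which degrades platelet activating factor, read 938, 1786 and 882 in ko, against 312, 305 and 258 in wt (3.92-fold rise, 2.60 to 5.92, adjusted p = 0.00235). Their groups lay far apart, and these were the 2 of the 15 largest rises that passed under every alternative. Cda, the cytidine deaminase that salvages pyrimidines, read 742, 1094 and 2498 in ko, against 222, 297 and 321 in wt (4.58-fold rise, adjusted p = 0.00718). Mfsd2b, which exports sphingosine 1-phosphate from red cells and platelets, read 945, 1595 and 2646 in ko, against 289, 466 and 497 in wt (3.91-fold rise, adjusted p = 0.00776). Both were highest in ko 3. Clec4a3, a C-type lectin receptor, rose 3.64-fold, and St3gal5, which makes the ganglioside GM3, read 464, 426 and 415 in ko, against 166, 135 and 109 in wt, a 3.22-fold rise. Tspan6, a tetraspanin, rose 3.65-fold. Fitted on the 6 Myc arrays alone without the block Cda, Mfsd2b, Tspan6 and Clec4a3 had adjusted p values of 0.0587, 0.0619, 0.0606 and 0.0792. Each of them passed the threshold on those arrays with the block.

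Slc44a1, a choline transporter, had the largest rise of the named genes, 4.68-fold (2.16 to 10.2, adjusted p = 0.03), at 330.2, 949 and 900.1 in Myc Zfx ko, against 98.9, 199.5 and 139 in Myc Zfx wt. A second probe set of Slc44a1 gave a smaller log2 difference, 1.49 against 2.23 for the one used. In the limma fit of all probe sets the second passed the threshold (adjusted p = 0.0248) and the one used did not (0.0595). Lgmn, a lysosomal endopeptidase, rose 3.99-fold, P3h2, a collagen prolyl hydroxylase, 4.24-fold, Pde5a, which breaks down cyclic GMP, 3.67-fold, and Catsperz, a sperm calcium channel subunit, 3.25-fold. These 5 and St3gal5 lost the call without some arrays: Slc44a1 without wt 1, wt 3, ko 2 or ko 3 (adjusted p 0.0916 to 0.11), P3h2 without any array but ko 1 (0.0545 to 0.142), Lgmn without any but wt 2 (0.0659 to 0.129), Pde5a without wt 1, wt 2, ko 2 or ko 3 (0.106 to 0.136), Catsperz without wt 1, wt 3 or ko 3 (0.054 to 0.075) and St3gal5 without wt 3 (0.0663).

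Genes of the growth programme that Myc is known for were called rarely between genotypes. Ribosome biogenesis had 1 of 44 genes up, Polr1e of RNA polymerase I at 1.20-fold, and 0 down (1 with the block), with a median of -0.01; for 42 of the 44 the 95% interval of the difference lay within 1.5-fold either way. Nucleotide synthesis had 1 of 25 genes down, Impdh1 of guanine nucleotide synthesis at 1.38-fold (2 with the block), with 23 intervals within 1.5-fold. Cytosolic tRNA synthetases (18 genes), cytosolic ribosomal proteins (56), glycolysis (17) and the proteasome (38) had 0 calls, with 17, 55, 14 and 37 intervals within 1.5-fold; with the block they had 2, 1, 1 and 0 higher and 0 lower. The mitochondrial ribosome had 1 of 77 up, Mrpl52 by 0.58 on the log2 scale, and 1 down, Mrpl14 at 1.33-fold (3 and 2 with the block), and oxidative phosphorylation had 1 of 34 down, Ndufa8 of complex I at 1.21-fold (1 up and 1 down with the block). In the Myc and Max network 1 of 13 fell, Mlx, a Max-like partner protein, at 1.25-fold, and 2 with the block. Apart from the short Myc and Max list these shares lie below the 5.46% of all genes, and over all genes 16764 of 19936 intervals lay within 1.5-fold. Of the genes named here only Mrpl14 kept its call without each array; the adjusted p of the other genes reached 0.154 for Polr1e, 0.131 for Impdh1, 0.105 for Mrpl52, 0.145 for Ndufa8 and 0.15 for Mlx.

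**Figure D4:**
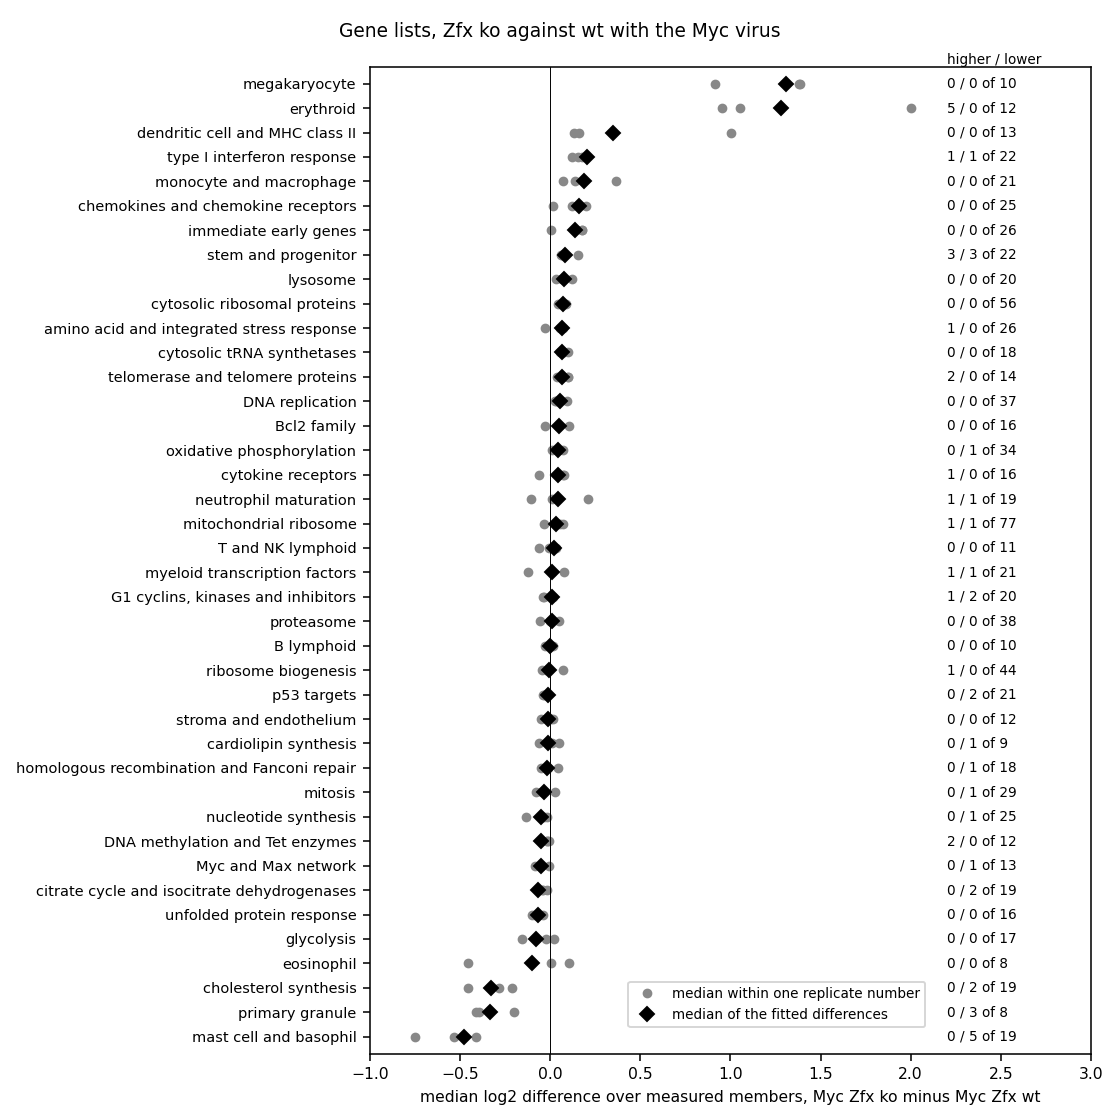
Each row is 1 of 40 gene lists; the horizontal axis is the median log2 difference over measured members, Myc Zfx ko minus Myc Zfx wt, with the median of each same-numbered pair as grey points and the counts of called members in print. The erythroid (1.28) and megakaryocyte (1.31) lists lie farthest to the right and the mast cell and basophil list (-0.48) farthest to the left.

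Idh2 and Ptpmt1, which were named whatever their values, both fell. Idh2, the mitochondrial isocitrate dehydrogenase that makes NADPH, read 2252, 1969 and 2025 in Myc Zfx ko, against 3967, 3485 and 3736 in Myc Zfx wt. The groups were well apart (1.79-fold fall, 1.59 to 2.02, adjusted p = 2.45e-04), and with GFP the fall was 1.62-fold (adjusted p = 7.75e-04). Ptpmt1, a mitochondrial phosphatase of cardiolipin synthesis, read 565, 700.5 and 679 in ko, against 1379.9, 1394 and 1281 in wt (2.09-fold fall, 1.67 to 2.62, adjusted p = 0.00248). With GFP Ptpmt1 fell 2.86-fold. Of 19 citrate cycle and isocitrate dehydrogenase genes 2 fell, Idh2 and Aco1, the cytosolic aconitase, at 1.48-fold, and 4 with the block. Aco1 lost its call without wt 1, wt 3 or ko 3 (adjusted p 0.0514 to 0.0722). Of 9 cardiolipin genes 1 fell, Ptpmt1, and 2 with the block. Cholesterol synthesis had 2 of 19 down, Tm7sf2 at 1.71-fold and Sc5d at 1.42-fold, and 11 down with the block, at a median of -0.33. Counts of these lists are read beside 3.72% of all genes lower, and 8.03% with the block. Tm7sf2, a sterol reductase, read 200.2, 222 and 198 in ko, against 289.9, 398 and 381 in wt. Sc5d lost its call without ko 1, ko 3, wt 2 or wt 3 (0.135 to 0.171).

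Calls among cell cycle genes are read beside 5.46% of all genes, and 14.1% with the block. In DNA replication 0 of 37 genes passed the threshold, and 2 were up and 1 down with the block. Mitosis had 1 of 29 down, Cdk1, the kinase that starts mitosis, at 1.22-fold, and 3 with the block. E2f1, a transcription factor of the entry into S phase, read 727, 639.9 and 669 in Myc Zfx ko, against 1081, 974 and 973 in Myc Zfx wt. The groups did not overlap (1.49-fold fall, 1.35 to 1.64, adjusted p = 7.32e-04), and it fell 1.59-fold with GFP. In the same list of 20 G1 genes Ccnd1, cyclin D1, rose 2.08-fold, at 745, 487 and 418 in ko, against 297, 219 and 258 in wt, and Rbl2, a pocket protein, fell 1.32-fold; with the block 1 rose and 3 fell. Cdk1 lost its call without ko 1, wt 2 or wt 3 (adjusted p 0.0528 to 0.0704), Ccnd1 without ko 1, ko 2, wt 2 or wt 3 (0.0576 to 0.0955) and Rbl2 without any array but wt 1 (0.0504 to 0.14).

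Stress, death and telomere lists held at most 2 calls each, to be read beside 1.74% of all genes higher and 3.72% lower. Of 21 p53 targets 2 fell, Ei24 at 1.81-fold and Perp at 2.82-fold, and 1 rose and 3 fell with the block. Ei24, a protein of the endoplasmic reticulum, read 873, 1125 and 900.2 in Myc Zfx ko, against 1638, 1912 and 1670.5 in Myc Zfx wt (adjusted p = 0.00452). Perp lost its call without ko 1, ko 2, wt 2 or wt 3 (adjusted p 0.0655 to 0.077). Among 14 telomere proteins 2 rose, Stn1 at 1.48-fold and Pot1a at 1.20-fold, both of which act at chromosome ends, and 3 with the block. Of 22 interferon response genes Oasl2 rose 1.42-fold and Bst2 fell 1.38-fold (3 and 1 with the block), and of 12 DNA methylation genes the methyltransferases Dnmt3a and Dnmt3b rose 1.44-fold and 1.63-fold.

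The integrated stress response had 1 of 26 up, Trib3 at 1.29-fold, and 5 up and 1 down with the block. Immediate early genes (26) had 0 calls and 6 up with the block, lysosome genes (20) 0 and then 5 up and 1 down, and Bcl2 family genes (16) 0 and then 1 up and 2 down. The unfolded protein response (16) and chemokines and their receptors (25) had 0 calls in either fit. Of 16 cytokine receptors Epor was the 1 called, and 2 were up and 1 down with the block. Over all genes 6.04% were up and 8.03% down with the block. The calls of Trib3, Pot1a, Dnmt3a and Dnmt3b were lost without at least 1 array, with adjusted p up to 0.128, 0.0975, 0.156 and 0.104.

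Many of the genes called with the Myc virus were also called with the GFP virus. The GFP and Myc comparisons share no array, but same-numbered arrays of 1 genotype deviated together across the viruses (r 0.440 to 0.791), so the effects may share a source such as mice or a day, and this was not tested. With GFP 819 genes were called, 4.11% of those tested: 586 fell (2.94%) and 233 rose (1.17%), and 1420 and 1020 with the block, 7.12% and 5.12%. Of the genes that fell with Myc 464 also fell with GFP, 62.5% of the Myc list and 79.2% of the GFP list, and 741 of 742 had the same sign. Of the genes that rose with Myc 141 also rose with GFP, 40.6% of the Myc list and 60.5% of the GFP list, and 343 of 347 had the same sign. No gene was called in opposite directions. Over the 742 falls the median log2 difference was -0.53 with Myc and -0.45 with GFP, and over the 347 rises 0.57 and 0.39; the genes were chosen on the Myc arrays, which favours the size there. Across all genes the 2 differences correlated at Pearson r = 0.843 and Spearman rho = 0.672, as a description over 19936 genes that are not independent.

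**Figure D5:**
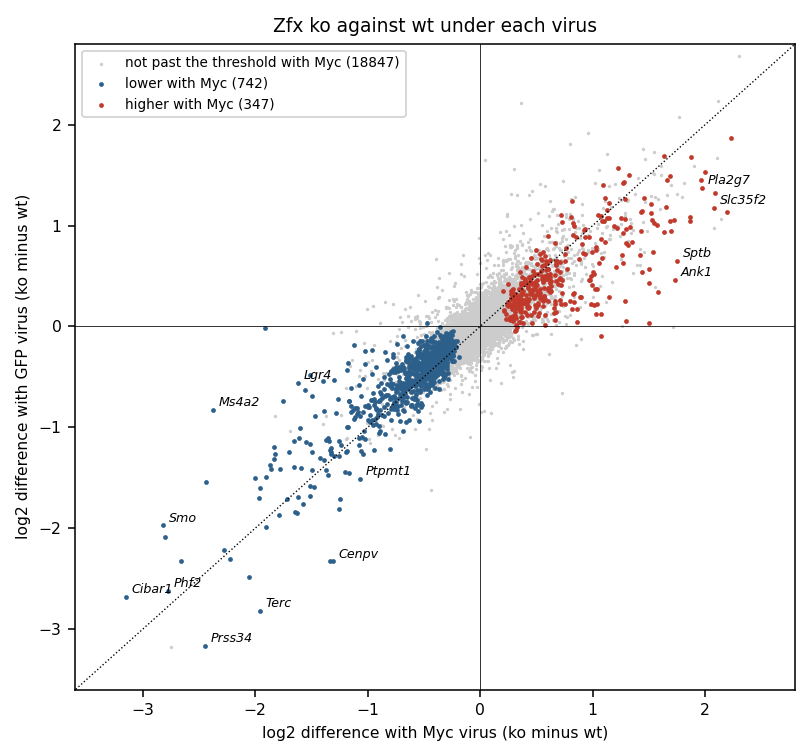
Each point is a gene; the horizontal axis is the log2 difference ko minus wt with the Myc virus and the vertical axis the same with the GFP virus; the dotted line marks equal differences. The points lie along a rising line, and the 464 genes that fell and 141 that rose in both sets of arrays lie in the lower left and upper right.

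The test of the difference between the Zfx effects called 0 genes (limma interaction, 0%), and 1 with the block (0.00502%). Without the block 343 had an unadjusted p under 0.05 (1.72%), below the 5% that independent arrays with no difference would give. Same-numbered arrays deviated together (median r 0.64), which that fit leaves in its spread, so the 1.72% does not show an absence of differences. Without Myc Zfx ko 1 the test with no block called 4 genes and without Myc Zfx wt 1 it called 1. A miss does not show that the effects are equal. The 5 genes with the lowest p of this test were chosen for that p, so their values are a description. Lgr4, a receptor for R-spondins of the Wnt pathway, read 43.5, 47.5 and 50.7 in Myc Zfx ko, against 123, 166 and 149 in Myc Zfx wt, and 40.3, 41.6 and 42.1 in GFP Zfx ko, against 62.2, 57.8 and 63.1 in GFP Zfx wt. It was low in ko under both viruses and highest in Myc Zfx wt, with a difference of -1.06 on the log2 scale (-1.37 to -0.75, adjusted p = 0.312). Cenpv, a centromere protein, read 1492, 1525 and 1751 in Myc Zfx ko, against 3743, 3768 and 4305 in Myc Zfx wt, and 417, 592 and 480.3 in GFP Zfx ko, against 2361, 2529.5 and 2512 in GFP Zfx wt, so its fall was 2.48-fold with Myc and 5.02-fold with GFP. Pkhd1l1 rose 2.05-fold with Myc, and with GFP was 1.17-fold higher (adjusted p = 0.265). Ncs1, a neuronal calcium sensor, fell 2.28-fold with Myc and 1.35-fold with GFP. Cysltr2, a leukotriene receptor, read 36.0, 38.3 and 36.3 in Myc Zfx ko, against 36.5, 33.8 and 36.4 in Myc Zfx wt, and rose 1.49-fold with GFP.

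Zfy1 and Zfy2, the Y-linked relatives of Zfx in the mouse, were dim in both genotypes, at 35.4 to 36.7 and 23.2 to 31.1 in Myc Zfx ko, against 35.2 to 37.5 and 26.2 to 29.1 in Myc Zfx wt. Of the 10 measured genes on each side of Zfx on chromosome X 1 passed the threshold, Pcyt1b, an enzyme of phosphatidylcholine synthesis, at 209.7, 423 and 561 in Myc Zfx ko, against 124, 165 and 198 in Myc Zfx wt (2.30-fold rise, adjusted p = 0.0481). Its call was lost without any array but ko 1 (adjusted p 0.0741 to 0.158). This compares with 5.46% of all genes. With the block 5 of the 20 passed, beside 14.1% of all genes: Pcyt1b, Maged1 and Zc4h2 higher and Klhl15 and Amer1 lower, the last 4 named after their values were seen. The genes next to Zfx, AU015836 and Eif2s3x, differed by 0.13 and 0.03 on the log2 scale (adjusted p = 0.313 and 0.972).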

How the data were processed

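The deposited table holds linear intensity values, 1 for each probe set on each array, that the authors obtained by RMA, per the submitters' processing notes; no software version or probe position was found in the labels or headers. Log2 was taken with no pseudocount and no filter on dim probe sets. Of 35556 probe sets 21789 had 1 gene symbol in the platform annotation, 1621 several and 12146 none; 19857 of the 19936 genes were matched to RefSeq, and each gene kept the probe set with the highest mean.

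All 12 arrays were fitted in R 4.3.3 with limma 3.58.1 (lmFit, eBayes), with a mean for each of 4 groups, 8 residual degrees of freedom and Benjamini-Hochberg adjustment over 19936 genes. Adjusted p values come from it unless a block is named, and fold intervals are 95% intervals of single genes. The fit was tested on simulated data.

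Same-numbered arrays deviated together from their group means (r 0.40 to 0.85, median 0.64, 18 pairs), against a median of -0.42 for other pairs (36), which follows in part from subtracting group means. From the values alone, arrays of 1 number were taken as a pair in the fits with a block. The main fit and the fits with an array left out have no block and do not use that pairing. The labels do not say what a number shares, so p-values measure the spread between arrays, which may be technical, and 3 arrays a group limit the precision. Values with the block are printed where they alter a call or shift a count more than 1.5 times.

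Genes were named by rule: Zfx, Zfy1, Zfy2, Myc, Idh2 and Ptpmt1; the 15 largest rises and falls past adjusted p 0.05 whose arrays do not overlap; the 5 lowest p of the interaction; up to 6 called members of each of 40 lists, or up to 3 where none passed; and neighbours of Zfx. Predicted and small RNA genes were left out, and 1 called list member is not reported here. The members and the lists were chosen with earlier results of these data known. Promoter windows were searched with Python 3.11.15. Alternatives were the block, only the groups compared, a second quantile normalization, centred arrays, a trended and robust prior, bright genes only, all probe sets and each array left out.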

Additional observations from a re-analysis of the deposited data

Results flagged for a closer look

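Nck2, an adaptor protein that links tyrosine kinases to the actin skeleton, was the 1 gene whose Zfx effect differed between the viruses in the fit with the replicate block, by -0.80 on the log2 scale (adjusted p = 0.0198, or 1 without the block). It read 227, 262 and 351 in Myc Zfx ko, against 380.1, 427 and 562 in Myc Zfx wt, and 343, 390.5 and 498 in GFP Zfx ko, against 327, 382 and 443 in GFP Zfx wt. With Myc each ko array was below its same-numbered wt array, and with GFP each ko array was slightly above it.

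Some probe sets that the gene-level comparison did not use passed the threshold too. In a fit of all 35556 probe sets with its own adjustment, 55 of the 12146 with no listed gene (0.453%) passed adjusted p 0.05 with Myc. Of the 1621 with several symbols 23 did (1.42%). These shares lie below the 5.46% of the 19936 genes, which comes from the separate gene-level fit. Of the 55, 28 were higher and 27 lower in Zfx ko, and of the 23, 10 were higher and 13 lower.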

How the results depend on the processing

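With Myc 1089 genes were called; the replicate block gave 2806, only the groups compared 562, those groups with the replicate block 2625, and leaving out 1 array 578 to 935. With GFP 819 were called; the replicate block gave 2440, the groups with the block 2408, and leaving out 1 array 410 to 567. The difference between the viruses called 0; the replicate block gave 1 and leaving out 1 array 0 to 4. A second quantile normalization, centring, the other prior, bright genes only and all probe sets kept each of these counts within 1.5 times. Of 77 named genes past the threshold 38 stayed past it under every alternative and 39 missed it under at least 1. Without each array 45 stayed past it, and 0 reversed under any alternative. Only the groups compared lost 37, those groups with the replicate block 2, and the replicate block on all arrays 0. Leaving out 1 array, in the fit with no block, lost 15 to 26. Why the counts moved was not tested. Of the calls with Myc 31.9% were rises, against 41.8% without Myc Zfx ko 1. With 3 arrays a group, intervals are wide for genes that vary between arrays, and dim probe sets have compressed differences.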
